A study of Homo sapiens with 6 samples.

Results

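The WNT ligands, their frizzled and LRP receptors, the R-spondin receptor system, the secreted WNT antagonists and the AXIN scaffolds were described in hypoxic T47D cells. Members were taken by gene symbol from the names WNT, FZD, SFRP, DKK, RSPO, LRP5, LRP6, LGR4 to LGR6, AXIN1, AXIN2, RNF43, ZNRF3 and WIF1. The pattern matched 52 of the 27754 genes in the files. A member was called expressed when its mean was at least 10 counts over the 6 libraries, and 29 of the 52 members were expressed.

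WNT proteins are secreted lipid-modified ligands that bind a frizzled receptor together with LRP5 or LRP6. Without a ligand, a destruction complex built on AXIN marks beta-catenin for degradation. With one, beta-catenin accumulates and activates genes together with TCF factors, while other WNT ligands signal without beta-catenin through planar cell polarity proteins. R-spondins bind LGR receptors and clear the ubiquitin ligases RNF43 and ZNRF3, which otherwise remove frizzled receptors from the cell surface. In the mammary gland the pathway is known for ductal growth and for the upkeep of stem cells, and WNT1 was first found as a gene activated by mouse mammary tumor virus.

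T47D is a luminal human breast cancer cell line with estrogen receptor. RNA was sequenced from 3 libraries of cells in normoxia (20% O2) and 3 libraries of cells placed in a hypoxia chamber, which the labels give as 0.5% O2 for 48 h. All cells were grown as adherent cultures of this single line, and oxygen is the only difference between conditions that the labels state. The study describes its data as independent experiments, and the labels do not tie the libraries to separate cultures, so p-values measure the spread between these libraries. Totals lay between 32989104 and 40943424 counts in 5 libraries and reached 89883409 in hypoxia replicate 3. Levels are given in counts-per-million (CPM). For a gene at 0 in normoxia, a bound on its change was set against a floor of 3 counts over the 3 normoxia libraries together, and such bounds and the counting intervals cover counting error only.

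The labelled cell type was checked first. The luminal markers ESR1, PGR, GATA3, FOXA1, KRT8, KRT18, KRT19, EPCAM, CDH1 and SPDEF were all detected in every library. In hypoxia 5 of the 10 were lower and 0 higher, beside 29.1% and 30.4% of all genes tested. The hypoxia markers VEGFA and CA9 rose from 39.2 ± 6.51 to 803 ± 35.8 CPM and from 0.610 ± 0.380 to 24.7 ± 5.92 CPM (SD, n = 3).

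Replicate 3 stood apart in both conditions. In normoxia, VIM, an intermediate filament of mesenchymal cells, was counted 7, 12 and 395 times in replicates 1, 2 and 3, and in hypoxia 35, 35 and 1001 times. CAV2 had no count in replicates 1 and 2 of either condition and 13 and 40 counts in replicate 3. CAV1 and MSN were likewise highest in replicate 3 of each condition. Over 15 mesenchymal markers, the summed level was 289 to 323 CPM in normoxia and 346 to 470 CPM in hypoxia, highest in replicate 3 of each. Most of that sum came from LGALS1 (184 and 211 CPM) and COL1A1 (88.7 and 84.3 CPM). Not every marker was highest in replicate 3. Its level over the mean of replicates 1 and 2 was 0.974 for LGALS1 in normoxia. In hypoxia it was 0.979 for AXL, 0.731 for PDGFRB and 0.551 for COL1A2, but 1.51 for S100A4. Of 11 markers tested, 5 were higher and 1 lower in hypoxia, beside 30.4% and 29.1% of all genes tested. The 6 basal markers summed to 25.1 to 31.8 CPM in normoxia and 64.1 to 91.7 CPM in hypoxia. The 6 blood, endothelial and muscle markers summed to 11.2 to 19.6 CPM and 20.2 to 28.1 CPM, with PTPRC and DES at 0 counts in every normoxia library. In bulk libraries, fewer cells of a type and less RNA per cell cannot be told apart. The part of other cells in the results on WNT genes was not tested, and the value without replicate 3 is therefore also given for each member whose call it changed. Without replicate 3, VIM was higher in hypoxia (log2-fold change 1.87) and 7 of the 10 luminal markers were lower. Over all 15803 genes tested in that fit, 5751 were higher and 5506 lower.

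**Figure D1:**
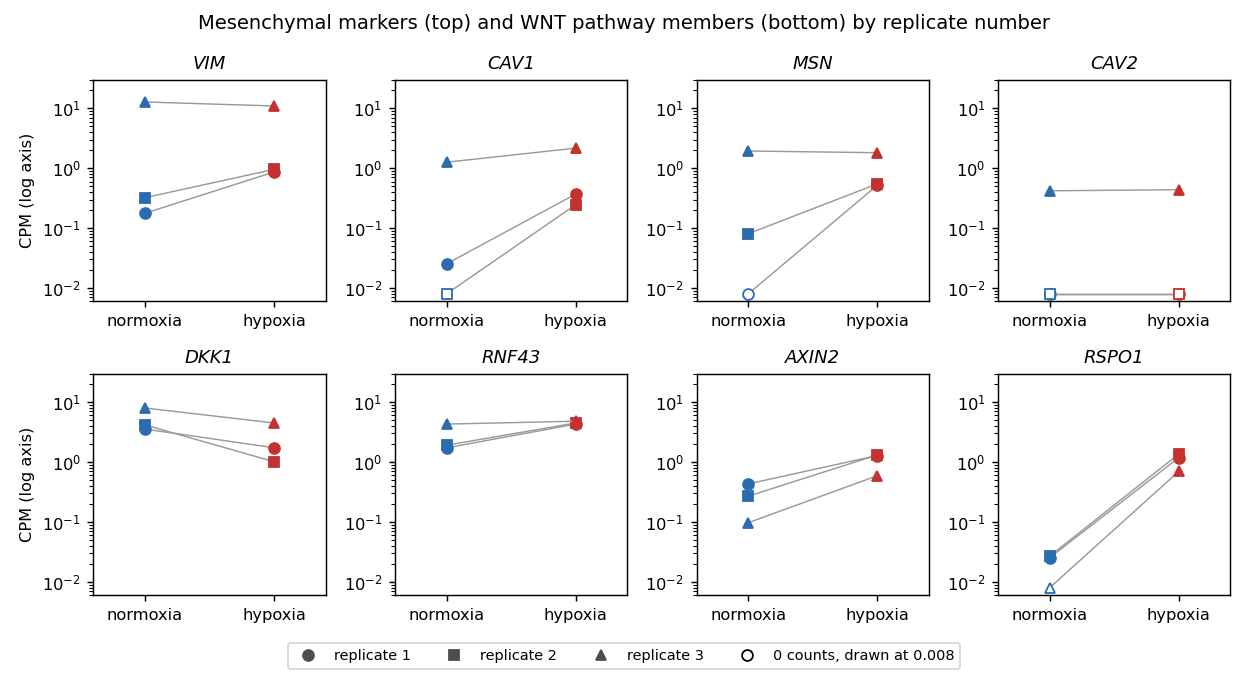
Level in CPM on a log axis for 4 mesenchymal markers (top) and 4 WNT pathway members (bottom), with gray lines joining libraries of the same replicate number and open symbols for 0 counts, drawn at 0.008. Replicate 3 (triangles) is the highest library of both conditions for VIM, CAV1, MSN, CAV2 and DKK1, and the lowest for AXIN2 and RSPO1.

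Calls were made with edgeR's quasi-likelihood test, adjusted by Benjamini-Hochberg over all 15657 genes tested, and this value is given as the edgeR adjusted p. Of the 29 expressed members, all of which were tested, 14 were higher in hypoxia, 2 were lower and 13 were not called at 0.05. Over all genes tested, 4765 (30.4%) were higher and 4551 (29.1%) were lower. Upper-quartile normalization shifted all genes tested from a median log2-fold change of 0.03 to 0.19 and gave 5972 higher and 3285 lower, and with it 17 members were higher and 0 lower. In 15 members every hypoxia library was above every normoxia library in CPM and in 3 every hypoxia library was below, where 34.9% and 32.4% of all genes tested did so. These counts cannot be read as an excess. AXIN2, LGR6, RSPO1, WNT1, WNT5A, WNT6, WNT11, FZD8 and DKKL1 passed the filter on low counts only through the hypoxia libraries. That selection favors a higher call, so the calls of these genes cannot be used as support. Of the 20 members over the filter in every normoxia library, 5 were higher and 2 were lower, beside 26.6% and 31.9% of the 14278 genes with that property. Without replicate 3 of both conditions, 17 members were higher and 4 lower, among them all 16 called with it. Calls rose over all genes too in that fit, with 5751 higher and 5506 lower of 15803 tested.

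**Figure D2:**
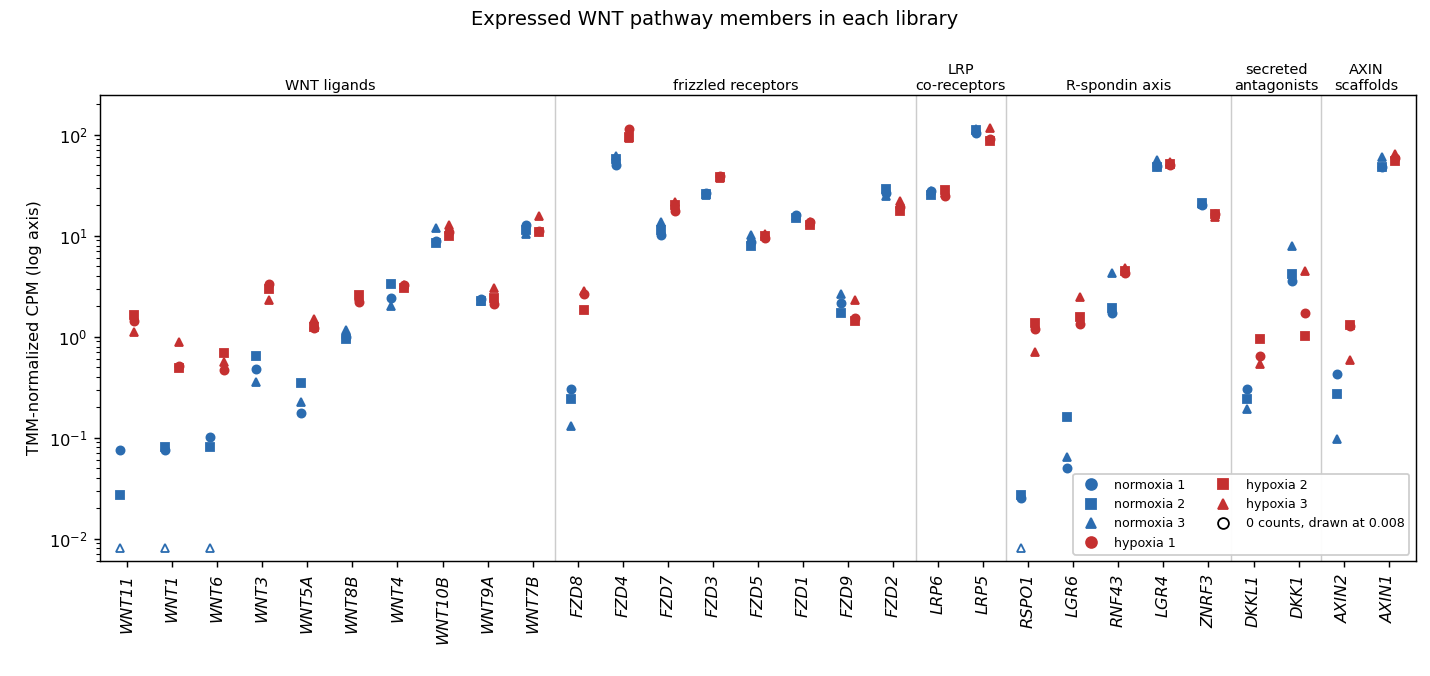
TMM-normalized level in CPM, on a log axis, of the 29 expressed members in each of the 6 libraries, ordered by class and by log2-fold change. In 15 members, from WNT11 at the left to AXIN2 near the right, all red symbols (hypoxia) lie above all blue symbols (normoxia), and open symbols mark 0 counts.

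Of 19 WNT ligands, 10 were tested and 6 were higher in hypoxia, beside 30.4% of all genes tested. WNT1, WNT5A, WNT6 and WNT11 passed the filter only through the hypoxia libraries, which favors a higher call. That leaves WNT3 and WNT8B, and none of the 6 had more than 39 counts in a normoxia library. Counts are given in the order of replicates 1, 2 and 3, for normoxia and then for hypoxia. WNT11, a ligand mainly known for signaling without beta-catenin (hg19, chromosome 11, 75897370 to 75917574), had 3, 1 and 0 counts and then 58, 60 and 103. The counts gave a depth-corrected ratio of 35.3, with a 95% counting interval of 13.6 to 131, and a log2-fold change of 5.13 ± 0.53 (SE, edgeR adjusted p = 0.000213). WNT1, the prototype beta-catenin ligand (chromosome 12, 49372236 to 49376396), had 3, 3 and 0 counts and then 21, 18 and 81, a ratio of 12.8 with an interval of 5.70 to 35.5. Its log2-fold change was 3.50 ± 0.60 (SE, edgeR adjusted p = 0.00172), and 2.65 without replicate 3. In both genes all hypoxia libraries were above all normoxia libraries, and in WNT1 replicate 3 held the largest hypoxic level.

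WNT6 (chromosome 2, 219724546 to 219738954) had 4, 3 and 0 counts in normoxia and 19, 25 and 52 in hypoxia, with a log2-fold change of 3.10 ± 0.56 (SE, edgeR adjusted p = 0.00220). WNT3, another target of mouse mammary tumor virus (chromosome 17, 44839872 to 44896126), had 19, 24 and 11 counts and then 136, 109 and 213. Its level rose from 0.494 ± 0.145 to 2.89 ± 0.520 CPM (SD, n = 3), giving a log2-fold change of 2.52 ± 0.28 (SE, edgeR adjusted p = 0.000272). Neither gene had overlapping conditions. WNT5A, the best known ligand of the beta-catenin-independent branch (chromosome 3, 55499743 to 55521670), had 7, 13 and 7 counts and then 50, 46 and 137, rising from 0.251 ± 0.0886 to 1.33 ± 0.146 CPM. Its log2-fold change was 2.40 ± 0.31 (SE, edgeR adjusted p = 0.000486). WNT8B (chromosome 10, 102222812 to 102243399) was already detected in normoxia with 39, 35 and 36 counts and had 89, 94 and 226 in hypoxia, a log2-fold change of 1.23 ± 0.20 (SE, edgeR adjusted p = 0.00139). The libraries of each condition again stayed apart.

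The 4 ligands with the most counts in normoxia did not pass the test. WNT7B had 506, 421 and 319 counts in normoxia and 451, 396 and 1451 in hypoxia, or 11.5 ± 1.27 and 12.6 ± 2.83 CPM (SD, n = 3). Its log2-fold change was 0.14 ± 0.17 (SE, edgeR adjusted p = 0.507) and -0.13 without replicate 3. WNT10B had 347, 319 and 371 counts and then 444, 363 and 1157, with a log2-fold change of 0.20 ± 0.17 (SE, edgeR adjusted p = 0.330). The ranges of both ligands overlapped, and WNT10B was called higher only without replicate 3, with a log2-fold change of 0.27. WNT4, a ligand induced by progesterone in mammary epithelium, had 96, 123 and 62 counts and then 133, 111 and 298, with a log2-fold change of 0.31 ± 0.22 (SE, edgeR adjusted p = 0.251). WNT9A had 94, 85 and 70 counts and then 85, 89 and 280, with a log2-fold change of 0.14 ± 0.20 (SE, edgeR adjusted p = 0.563). Per kilobase of exon, the level of WNT10B was the highest of the ligands in both conditions, at 4.13 CPM per kb in normoxia and 4.72 in hypoxia, followed by WNT7B at 2.93 and 3.22. On the same scale WNT11 went from 0.0178 to 0.726, so that it stayed below both after its change.

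**Figure D3:**
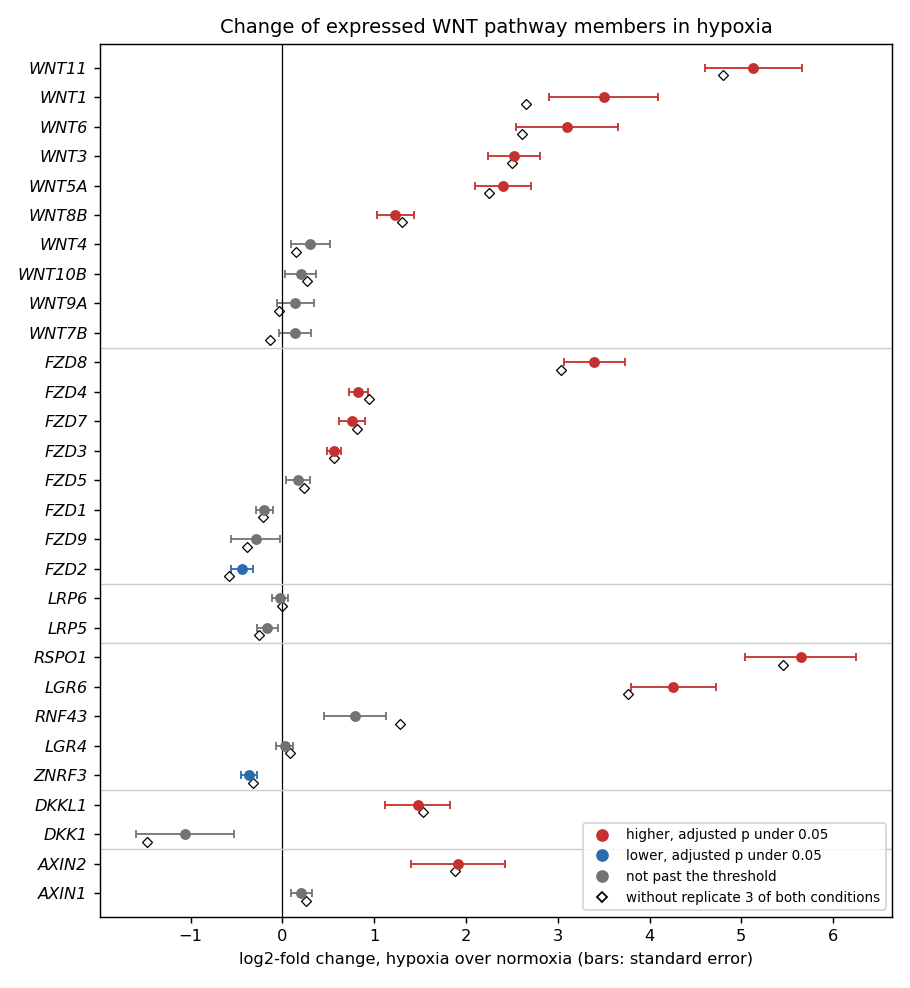
Log2-fold change of the 29 expressed members in hypoxia over normoxia by class, with bars for the standard error, red and blue for members called higher and lower, gray for the others, and open diamonds for the fit without replicate 3 of both conditions. The changes run from -1.06 for DKK1, which was not called, to 5.65 for RSPO1, and RNF43 and DKK1 move away from 0 without replicate 3.

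The other 9 ligands were below a mean of 10 counts. WNT8A was at 0 in all libraries and WNT16 had at most 1 count. WNT5B had 0 counts in normoxia and 8, 3 and 12 in hypoxia, at least 4.90-fold higher against the floor. WNT9B had 0 counts in normoxia and then 4, 3 and 2, and WNT2 had 0 counts and then 2, 0 and 5. WNT10A had 0, 1 and 0 counts and then 3, 3 and 14, a ratio of 12.8 with a 95% counting interval of 2.04 to 530. WNT3A had 1, 4 and 2 counts and then 7, 9 and 19. WNT2B had 8, 5 and 1 counts and then 6, 5 and 17, and WNT7A had counts above 3 in replicate 3 alone, with 4 in normoxia and 16 in hypoxia. These low ligands were not tested, because they did not pass the filter.

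WNT genes lie side by side in 4 pairs, and the genes of a pair differed in level. WNT1 and WNT10B are separated by 6594 bases on chromosome 12. Per kilobase of exon, WNT1 was at 0.0229 CPM per kb in normoxia and 0.277 in hypoxia, where WNT10B was at 4.13 and 4.72. WNT6 and WNT10A are 6300 bases apart on chromosome 2, and stood at 0.337 and 0.0434 CPM per kb in hypoxia. WNT3 and WNT9B are 32825 bases apart on chromosome 17, with 0.861 and 0.0101 CPM per kb in hypoxia. WNT3A and WNT9A, 59046 bases apart on chromosome 1, were at 0.0703 and 2.04 CPM per kb in hypoxia.

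**Figure D4:**
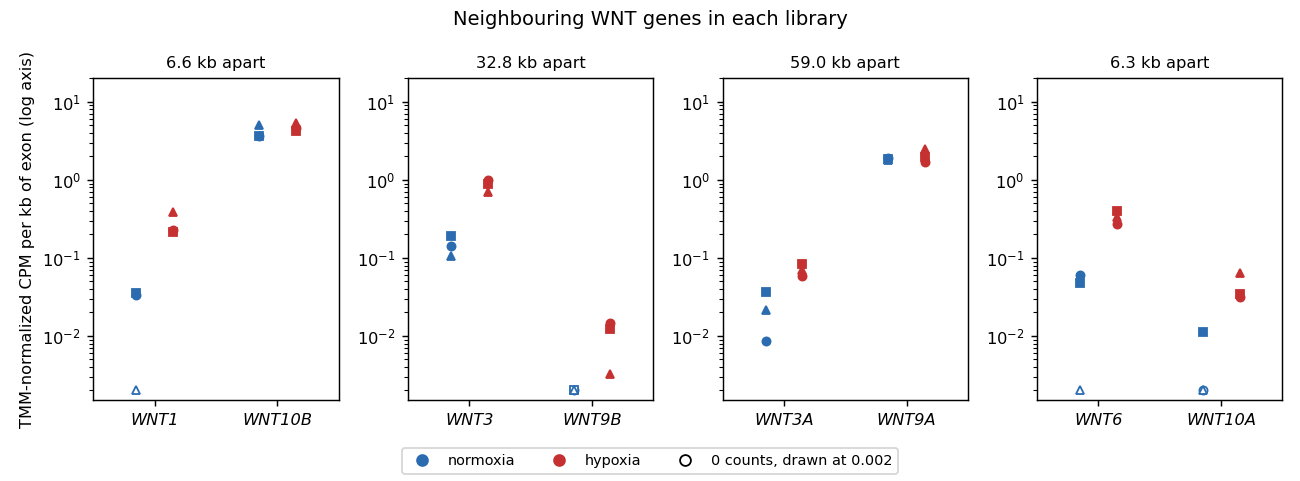
TMM-normalized level in CPM per kb of exon, on a log axis, of 4 pairs of neighboring WNT genes in each library, with the distance between the genes above each panel and open symbols for 0 counts, drawn at 0.002. All hypoxia libraries lie above all normoxia libraries for WNT1, WNT3, WNT9B, WNT3A, WNT6 and WNT10A, of which WNT9B, WNT3A and WNT10A were not tested, and the conditions overlap for WNT10B and WNT9A.

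Of 10 frizzled receptors, 8 were expressed, and 4 of these were higher and 1 lower in hypoxia, beside 30.4% and 29.1% of all genes tested. Of the 4, FZD8 passed the filter only through the hypoxia libraries, which favors a higher call. FZD8 (chromosome 10, 35927177 to 35930362) had 12, 9 and 4 counts in normoxia and 107, 68 and 257 in hypoxia, from 0.225 ± 0.0886 to 2.44 ± 0.508 CPM (SD, n = 3). Its log2-fold change was 3.40 ± 0.34 (SE, edgeR adjusted p = 0.000180). The microRNA gene MIR4683 lies within FZD8 and had 0 counts in all libraries. FZD4, the receptor of Norrin as well as of WNT ligands (chromosome 11, 86656717 to 86666440), had 2005, 2166 and 1896 counts and then 4576, 3494 and 8559. It rose from 56.7 ± 5.37 to 101 ± 10.7 CPM, giving a log2-fold change of 0.83 ± 0.11 (SE, edgeR adjusted p = 0.000521). FZD4 shares 1399 exon bases with PRSS23 on the opposite strand, a protease gene with 98, 69 and 50 counts in normoxia and 432, 314 and 905 in hypoxia. The strand setting of the counting is not given in the sources used here, and the part of PRSS23 in the FZD4 counts was not tested.

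FZD7 (chromosome 2, 202899310 to 202903160) had 398, 425 and 421 counts and then 713, 735 and 1963, a log2-fold change of 0.76 ± 0.14 (SE, edgeR adjusted p = 0.00241). FZD3, a receptor known for axon guidance and planar cell polarity, had 1036, 973 and 789 counts and then 1580, 1400 and 3424, with a log2-fold change of 0.56 ± 0.07 (SE, edgeR adjusted p = 0.000563). For both receptors the conditions did not overlap. FZD2 (chromosome 17, 42634812 to 42638630) fell, with 1045, 1084 and 770 counts in normoxia and 786, 638 and 2042 in the hypoxia libraries. Its level went from 26.8 ± 2.15 to 19.7 ± 2.46 CPM (SD, n = 3), giving a log2-fold change of -0.44 ± 0.12 (SE, edgeR adjusted p = 0.0129). All hypoxia libraries were below all normoxia libraries, but the call was lost with upper-quartile normalization (log2-fold change -0.29), without replicate 1 (-0.44) and without replicate 2 (-0.30).

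FZD1, FZD5 and FZD9 did not pass the test. FZD1 had 627, 558 and 483 counts and then 557, 472 and 1265, with a log2-fold change of -0.20 ± 0.09 (SE, edgeR adjusted p = 0.103), although its hypoxia libraries were all below those in normoxia. FZD5 had 340, 296 and 312 counts and then 383, 363 and 960 (log2-fold change 0.17 ± 0.13, edgeR adjusted p = 0.291). It was called higher only with upper-quartile normalization. FZD9 had 52 to 211 counts and a log2-fold change of -0.29 ± 0.27 (edgeR adjusted p = 0.372). Per kilobase, FZD4 was the most abundant frizzled receptor in both conditions, at 7.67 and 13.6 CPM per kb. FZD2 was next at 7.02 in normoxia, where FZD7 was at 3.04, and both receptors were close in hypoxia, at 5.16 and 5.12. FZD10 was at 0 in all libraries, and FZD6 had 0, 0 and 5 counts in normoxia and 1, 1 and 20 in hypoxia, so that nearly all of its counts came from replicate 3.

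The co-receptors LRP5 and LRP6 were expressed and did not pass the test. LRP5 had 4154, 4119 and 3571 counts in normoxia and 3718, 3211 and 10601 in hypoxia, or 110 ± 5.06 and 98.5 ± 15.2 CPM (SD, n = 3). Its log2-fold change was -0.16 ± 0.11 (SE, edgeR adjusted p = 0.245), and it was called lower without replicate 3 (log2-fold change -0.26, edgeR adjusted p = 0.00176). LRP5 was also called lower without hypoxia replicate 3 alone. Hypoxia replicate 3, at 116 CPM, was the highest of its condition. LRP6 had 1108, 934 and 851 counts and then 998, 1028 and 2419, with a log2-fold change of -0.03 ± 0.09 (SE, edgeR adjusted p = 0.820). LRP5 had the highest level per kilobase of all expressed members in both conditions, at 20.6 and 18.4 CPM per kb, and LRP6 was at 2.67 and 2.62.

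In the R-spondin system a ligand and a receptor with few counts in normoxia rose, and a ubiquitin ligase fell. The ligand RSPO1 and the receptor LGR6 passed the filter only through the hypoxia libraries. RSPO1, a secreted R-spondin (chromosome 1, 38076951 to 38100595), had 1, 1 and 0 counts in normoxia and 48, 50 and 64 in hypoxia. The ratio was 51.7, with a 95% counting interval of 14.1 to 431. Its log2-fold change of 5.65 ± 0.61 (SE, edgeR adjusted p = 0.000239) was the largest of the 29 expressed members, and in each condition replicate 3 was the lowest in CPM. LGR6, an R-spondin receptor (chromosome 1, 202163118 to 202288889), had 2, 6 and 2 counts and then 54, 58 and 227, with a log2-fold change of 4.26 ± 0.46 (SE, edgeR adjusted p = 0.000251). LGR4, the R-spondin receptor with the most RNA here, had 1918, 1767 and 1762 counts and then 2040, 1873 and 4947 (log2-fold change 0.03 ± 0.09, edgeR adjusted p = 0.822). Per kilobase, LGR4 stood at 9.74 and 9.91 CPM per kb, and LGR6 went from 0.0253 to 0.495, so that LGR4 remained the higher receptor in both conditions. RSPO4 had 0 counts in normoxia and 8, 9 and 20 in hypoxia, at least 7.88-fold higher against the floor, LGR5 had 0 counts and then 0, 1 and 7, and RSPO2 and RSPO3 had at most 3 counts in any library.

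The ligases ZNRF3 and RNF43 had changes of opposite sign, of which that of ZNRF3 passed the test. ZNRF3 (chromosome 22, 29279755 to 29453476) had 800, 782 and 643 counts in normoxia and 671, 595 and 1400 in hypoxia, from 20.7 ± 0.380 to 16.0 ± 0.656 CPM (SD, n = 3). Its log2-fold change was -0.37 ± 0.09 (SE, edgeR adjusted p = 0.00827) with no overlap between conditions, and the call was lost with upper-quartile normalization (-0.21), without replicate 1 (-0.40) and without replicate 2 (-0.37). RNF43 (chromosome 17, 56429861 to 56494943) had 68, 71 and 133 counts and then 174, 164 and 439. All its hypoxia libraries were above those in normoxia, normoxia replicate 3 was far above the other normoxia libraries, and the log2-fold change of 0.79 ± 0.33 did not pass (SE, edgeR adjusted p = 0.0718). In a fit with replicate as a block the value was 0.85 (edgeR adjusted p = 0.0126), and without replicate 3 it was 1.28 (edgeR adjusted p = 2.17e-05), higher in both fits. RNF43 was also called higher with edgeR's exact test (0.79), with DESeq2 (0.77), with upper-quartile normalization (0.96) and without normoxia replicate 3 (1.32). RNF43 shares 1228 exon bases with the antisense gene TSPOAP1-AS1, which had 39, 37 and 16 counts and then 47, 42 and 65.

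Of 10 members classed by name as secreted antagonists, 2 were expressed. DKK1, which binds LRP5 and LRP6 and blocks WNT signaling (chromosome 10, 54074041 to 54077417), had 140, 155 and 247 counts in normoxia and 70, 37 and 410 in hypoxia. Its level was 5.23 ± 2.40 and 2.41 ± 1.83 CPM (SD, n = 3), lower in hypoxia in 3 of 3 pairs of equal replicate number, and the conditions overlapped, with replicate 3 the highest library of each. The log2-fold change of -1.06 ± 0.53 did not pass (SE, edgeR adjusted p = 0.117). With the replicate block it was -1.21 (edgeR adjusted p = 0.00167), and without replicate 3 it was -1.47 (edgeR adjusted p = 6.31e-05), lower in both fits. DKK1 was also called lower with DESeq2 (-1.12) and without hypoxia replicate 3 (-1.92). DKKL1, named for its likeness to the DKK family (chromosome 19, 49866987 to 49878373), had 12, 9 and 6 counts and then 26, 35 and 49, with a log2-fold change of 1.47 ± 0.35 (SE, edgeR adjusted p = 0.00828). Its conditions did not overlap, and the call was lost without replicate 1 and without replicate 2, where the log2-fold changes were 1.73 and 1.20. DKKL1 passed the filter only through the hypoxia libraries, which favors a higher call.

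The other 8 antagonists were below a mean of 10 counts. SFRP5 was at 0 in all libraries, and DKK2, DKK4, SFRP2 and WIF1 had at most 3 counts in any library. SFRP4 had 6, 2 and 1 counts in normoxia and 1, 1 and 2 in hypoxia. DKK3 had 0, 0 and 5 counts and then 1, 0 and 16, and SFRP1 had 0, 0 and 5 counts and then 0, 2 and 5, so that in normoxia both were counted in replicate 3 alone. No SFRP gene passed the filter on low counts.

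The scaffolds AXIN1 and AXIN2 were both expressed. AXIN2, a target of beta-catenin that feeds back on the pathway (chromosome 17, 63524683 to 63557740), had 17, 10 and 3 counts in normoxia and 52, 48 and 54 in hypoxia. It rose from 0.265 ± 0.167 to 1.06 ± 0.409 CPM (SD, n = 3), with a log2-fold change of 1.91 ± 0.51 (SE, edgeR adjusted p = 0.0133). The conditions did not overlap, replicate 3 was the lowest of each, and the call was lost without replicate 2 (log2-fold change 1.72). AXIN2 was over the filter in 2 normoxia libraries and passed only through the hypoxia libraries, which favors a higher call. AXIN1, the constant scaffold of the destruction complex, had 1894, 1785 and 1857 counts and then 2407, 2013 and 5962, with a log2-fold change of 0.21 ± 0.11 (SE, edgeR adjusted p = 0.154). AXIN1 was called higher with the replicate block (0.21, edgeR adjusted p = 0.0149) and without replicate 3 (0.26, edgeR adjusted p = 0.00383). It was also called higher with upper-quartile normalization and without normoxia replicate 3. Per kilobase AXIN1 was at 14.2 and 16.4 CPM per kb, against 0.0627 and 0.251 for AXIN2.

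Promoter sequences of the members were read for the letters ACGTG and GCGTG, the core of the element bound by hypoxia-inducible factors, and CTTTGAT, a site of TCF factors, on both strands. RefSeq promoters (GRCh38.p14, 250 bases before to 50 bases after the start) were found for 35 of the 52 members, in 41 entries. The windows below are from members that rose and are shown because they hold such letters. All of these members except WNT3 passed the filter on low counts only through the hypoxia libraries. Capitals mark 1 match in each window, CACGC is GCGTG on the other strand, and the DKKL1 window also holds a GCGTG left in lower case.
RSPO1: tcgggcaaggACGTGtggactcccg
DKKL1: aggtcaactgACGTGggcgtggtct
WNT1: aggcgggcgcGCGTGggagggtgtc
WNT3: cgggaggggcGCGTGattgacaggc
WNT5A: tttgcacaatCACGCccacatttgg
FZD8: ccctgggagcGCGTGgactccgccc
The windows lie at chr1:37635002-37635026 on the minus strand, chr19:49363649-49363673 on the plus strand, chr12:48978197-48978221 on the plus strand, chr17:46818834-46818858 on the minus strand, chr3:55487370-55487394 on the minus strand and chr10:35642379-35642403 on the minus strand. The letters in capitals begin 124, 218, 115, 156, 78 and 97 bases before the start of the gene, in that order. ACGTG was in 6 of the 41 entries (14.6%) and in 21.4% of all 35116 promoters, and GCGTG was in 18 (43.9%) and 36.5%. Among the promoters of genes tested, 25.0% held ACGTG and 47.5% held GCGTG. Of 13 entries from members that rose, 2 held ACGTG and 6 held GCGTG, beside 0 and 5 of 11 entries from expressed members that did not pass. The other entries with ACGTG were those of WNT3A, WNT8A, SFRP4 and RSPO4, which were below a mean of 10 counts. Entries were found for 10 of the 14 members called higher and for 0 of the 2 called lower. CTTTGAT was in none of the 41 entries and in 2.62% of all promoters. A match is a description of letters and not a bound site.

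Other genes of WNT signaling were taken from 6 lists, with the members left out. Of 92 tested genes, 32 (34.8%) had a higher level, 20 (21.7%) a lower one and 40 were not called, beside 30.4% and 29.1% of all genes tested, and their median log2-fold change was 0.19 beside 0.03. Of the 82 over the filter in every normoxia library, 23 were higher and 20 lower, beside 26.6% and 31.9%. The numbers higher and lower were 47 and 14 with upper-quartile normalization and 44 and 24 with the replicate block, and the number lower was 9 without replicate 1 of both conditions. Over all genes, upper-quartile normalization gave 5972 higher and 3285 lower, and the replicate block 5733 and 5511. Without replicate 1, 2191 of all genes were lower. Without replicate 3, the numbers higher and lower were 5 and 4 for the list of secretion, 9 and 5 for the cytoplasmic list, 6 and 6 for the TCF list and 8 and 4 for the polarity list. Over all genes that fit gave 5751 higher and 5506 lower. Among frizzled partners and other WNT receptors, 5 of 11 were higher and 2 lower. Of the 10 over the filter in every normoxia library, 4 were higher and 2 lower. ADGRA2, a frizzled partner for WNT7 ligands, rose from 1.83 ± 0.363 to 6.44 ± 0.123 CPM (SD, n = 3). TSPAN12, the FZD4 partner in Norrin signaling, rose from 6.07 ± 0.568 to 11.8 ± 1.13 CPM, and the WNT receptor RYK from 78.0 ± 4.11 to 119 ± 1.51 CPM. The DKK1 receptor KREMEN1 fell from 51.0 ± 7.34 to 29.1 ± 3.14 CPM, and the glypican GPC6 fell from 52.2 ± 5.12 to 36.1 ± 4.35 CPM.

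Among genes of WNT secretion and handling outside the cell, 3 of 10 were higher and 2 lower, beside 30.4% and 29.1% of all genes tested. Of the 8 over the filter in every normoxia library, 1 was higher and 2 lower, beside 26.6% and 31.9% of such genes. Over the whole list, 7 were higher without normoxia replicate 2, a fit in which 4541 of all 16032 genes tested were higher. WLS, the carrier that brings WNT proteins to the surface, rose from 3.80 ± 0.491 to 8.02 ± 0.418 CPM (SD, n = 3). SULF2, a heparan sulfatase, had 64, 76 and 8 counts in normoxia and 436, 347 and 175 in hypoxia, with overlapping ranges in CPM and an edgeR adjusted p of 0.0233. SULF2 was under the filter in normoxia replicate 3 and passed only through the hypoxia libraries, which favors a higher call. IGFBP4 fell from 708 ± 82.2 to 379 ± 49.1 CPM, and TMED2, a cargo receptor of the secretory pathway, from 619 ± 57.5 to 487 ± 38.0 CPM.

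Of 22 cytoplasmic genes, 6 were higher and 4 lower, beside 30.4% and 29.1% of all genes tested. Of the 20 over the filter in every normoxia library, 4 were higher and 4 lower, beside 26.6% and 31.9% of such genes. Over the whole list, the number lower was 2 without replicate 1 or without replicate 2. Over all genes, those fits called 2191 of 15713 and 3133 of 15794 lower. NKD2, which binds Dishevelled, rose from 0.667 ± 0.336 to 6.06 ± 1.15 CPM (SD, n = 3). The tankyrase TNKS, which marks AXIN for degradation, rose from 41.5 ± 5.94 to 75.6 ± 11.6 CPM, and the kinase CSNK1A1 from 330 ± 8.82 to 408 ± 22.7 CPM. The GSK3-binding genes FRAT1 and FRAT2 fell from 20.2 ± 3.84 to 8.95 ± 0.603 and from 70.1 ± 10.8 to 28.7 ± 1.20 CPM, and the kinase GSK3A fell from 83.8 ± 5.02 to 66.3 ± 5.98 CPM. CTNNB1, the gene of beta-catenin and named here although outside the rule, was at 444 ± 14.0 and 446 ± 33.4 CPM. Of 17 genes of the TCF complex, all over the filter in every normoxia library, 3 were higher and 5 lower. Of all genes with that property, 26.6% were higher and 31.9% lower. With the replicate block the numbers of TCF complex genes higher and lower were 7 and 6, and without replicate 1 they were 0 and 1. Over all genes the block called 5733 higher and 5511 lower of 15657, and the fit without replicate 1 called 2648 and 2191 of 15713. TCF7, TLE1 and CTBP2 had log2-fold changes of 0.84, 0.47 and 0.24, and AES, the coactivator PYGO2 and CTBP1 had -0.54, -0.53 and -0.40.

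Of 16 planar cell polarity genes, 6 were higher and 4 lower, beside 30.4% and 29.1% of all genes tested. Of the 14 over the filter in every normoxia library, 4 were higher and 4 lower, beside 26.6% and 31.9% of such genes. PRICKLE1 rose from 0.405 ± 0.135 to 4.03 ± 0.424 CPM (SD, n = 3), PRICKLE2 from 7.12 ± 1.37 to 12.4 ± 1.38 CPM and INTU from 6.69 ± 0.398 to 13.9 ± 1.25 CPM. PRICKLE1 had 10, 19 and 14 counts in normoxia and passed the filter only through the hypoxia libraries, which favors a higher call. The atypical cadherins CELSR1 and CELSR2 fell from 311 ± 33.0 to 191 ± 13.2 and from 125 ± 15.9 to 57.7 ± 0.232 CPM, and SCRIB fell from 274 ± 70.0 to 140 ± 26.8 CPM.

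Of 20 tested genes known as targets of beta-catenin in some tissues, 12 were higher and 3 lower (median log2-fold change 1.17), beside 30.4% and 29.1% of all genes tested. Of the 15 over the filter in every normoxia library, 8 were higher and 3 lower, beside 26.6% and 31.9% of such genes. Without replicate 1 the number lower was 1, where 2191 of all 15713 genes tested were lower. ETS2 rose from 5.17 ± 0.594 to 20.0 ± 0.873 CPM, JUN from 29.5 ± 18.3 to 94.2 ± 6.85 CPM and BAMBI from 64.7 ± 32.9 to 182 ± 38.2 CPM (SD, n = 3). CLDN1 fell from 316 ± 72.2 to 169 ± 34.6 CPM, EPHB3 from 57.2 ± 10.8 to 40.9 ± 3.62 CPM and CCND1, cyclin D1, from 274 ± 20.4 to 200 ± 35.6 CPM. Of the 28 genes on this list, 20 were tested and 5 of these were not called, among them LEF1 (log2-fold change 0.15). Members are not on the list, so AXIN2, a target whose higher call followed a filter pass through hypoxia only, is not counted. The list was chosen with earlier results of these data known, so its count cannot be read as an excess. These genes also respond to other pathways, and their link to WNT signaling was not tested.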

How the data were processed

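The authors sequenced stranded mRNA libraries, removed adapters with Skewer, aligned reads with STAR to hg19 and deposited featureCounts read counts per RefSeq gene, without normalization. The submitters' processing notes name FastQC 0.11.5, STAR 2.5.2a and featureCounts 1.5.1. Whether counting used strand, and how multi-mapping reads were handled, is not given in the sources used here. Groups and replicate numbers came from the labels, which give a lower oxygen level than the paper.

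The software was R 4.3.3 with edgeR 4.0.16 and DESeq2 1.42.0. Genes were kept by filterByExpr (minimum count of 10, total of 15) and compared between conditions by the quasi-likelihood test of edgeR, over the 6 libraries after TMM normalization and without covariates. Calls had a Benjamini-Hochberg adjusted p under 0.05. The study's exact test was an alternative. CPM values are TMM-normalized, given as mean ± SD, and divided by exon length in kb for comparisons between genes. The fit was tested on simulated data.

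Libraries of equal replicate number deviated together (correlations 0.338, 0.422 and 0.575), and the study's methods call the samples paired, so a fit with the replicate number as a block was added. Libraries of a condition differed by more than sampling noise (chi-square per degree of freedom at least 6.38).

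The members and lists were chosen with earlier results of these data known. All expressed members are named, with counts for those past the threshold or with a mean of at least 100 counts. Each pathway list is represented by its largest called changes, up to 3 each way, at a mean of 100 counts or more. Of the 712 exon ends of members, 639 (89.7%) were in the GENCODE annotation of GRCh37.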

Additional observations from a re-analysis of the deposited data

How the results depend on the processing

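With 14 members higher and 2 lower, 16 other fits were run. All 14 higher members kept their call with edgeR's exact test, DESeq2, RLE and upper-quartile factors, both other filters and the replicate block. The exact test and DESeq2 also called RNF43 higher, and DESeq2 called DKK1 lower. The number higher ran from 12 to 17 when libraries or replicate pairs were left out, and was 13 at an adjusted p of 0.01. The number lower ran from 0 to 4 over the fits that left out libraries, and was 0 with upper-quartile factors and 1 at an adjusted p of 0.01. It was 0 without replicate 1 and without replicate 2, which leave fewer libraries, and 4 without replicate 3, and the cause was not tested. Over all genes, 2191 of 15713 tested were lower without replicate 1, 3133 of 15794 without replicate 2 and 5506 of 15803 without replicate 3. The main fit called 4551 of 15657 lower. Upper-quartile factors moved the median of all genes tested from 0.03 to 0.19, and 17 members were then higher.

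The replicate block gave 16 members higher and 3 lower, adding AXIN1, RNF43 and DKK1, and changed no other call among the members. Over all 15657 genes tested it gave 5733 higher and 5511 lower, where the main fit gave 4765 and 4551. Without any filter, RSPO4, WNT10A, WNT3A and WNT5B were also higher (18 members). The number of expressed members was 29 as well under a rule of a mean of at least 0.5 CPM in 1 condition. Both rules can be met through hypoxia alone. At least 10 counts in every normoxia library were reached by 20 of the 52 members, and in every hypoxia library by 29.

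Of the other WNT pathway genes, 32 were higher and 20 lower. The number lower was 12 at an adjusted p of 0.01 and ran from 9 (without replicate 1) to 25 (without replicate 3) over the fits that left out libraries, and the number higher ran from 24 to 45. Upper-quartile factors gave 47 higher and 14 lower, and the replicate block 44 and 24. No result changed its direction while called. Depth limits the members under 10 counts, most of which had at most 3 counts in normoxia.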
